A study of Mus musculus with 16 samples.

Results

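Brown fat burns fuel in its mitochondria to make heat. Most of the respiratory chain that carries this out is encoded in the nucleus, and most of the 50 genes described here code for its later part. By symbol, 4 belong to complex II (the Sdh genes) and 9 to complex III (Cyc1 and the Uqcr genes). Another 19 belong to complex IV (symbols that start with Cox4 to Cox8) and 17 to complex V (symbols that start with Atp5). The last is the carrier cytochrome c (Cycs). Such symbols also take in associated proteins, such as Atp5s and Cox7a2l. They were taken by symbol from the 38924 rows of the count table, and 6 rows named as pseudogenes were left out. Of the 50, 46 passed the filter on low counts and were tested. Cox7b2 and Cox8c had no count in any library, and Cox6c2 (80 counts over all 16 libraries, annotated as a processed pseudogene) and Atp5g2 (81 counts) were too low.

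Interscapular brown fat of C57BL/6J mice aged 13 weeks was profiled by bulk RNA-seq. The animals lacked Akt2 in brown fat (KO, by the tamoxifen-dependent Cre UCP1-CreER, which acts where the Ucp1 promoter is active, so other cells of the depot keep the gene) or were wild-type littermates (WT), and had been housed for 4 weeks at 22 °C or at 30 °C, which is thermoneutral for mice. The groups were KO at 22 °C, WT at 22 °C, KO at 30 °C and WT at 30 °C, with 4 libraries each. Whether each library is a separate animal is not stated in the labels, and p-values reflect only how these libraries vary. The question is how nuclear-encoded respiratory chain transcripts respond to housing temperature and whether AKT2, a kinase downstream of the insulin receptor, changes that response.

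In the chain, complex II oxidises succinate and passes the electrons to ubiquinone, complex III moves them to cytochrome c, and complex IV hands them to oxygen. Complexes III and IV pump protons, and complex V uses the resulting gradient to make ATP. In brown fat the uncoupling protein UCP1 lets protons back without making ATP, which releases heat, and the tissue is known for a very high oxidative capacity beside little ATP synthase. Several complex IV subunits, and subunit c of complex V, have more than one gene, with isoforms typical of muscle and brown fat, lung or testis.

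Library totals lay between 12751528 and 23866743 counts. Akt2 itself was at 76.3 to 89.3 CPM (counts relative to the TMM-adjusted library total) in KO and 216.3 to 261 CPM in WT at 22 °C, and at 56.2 to 81.0 CPM in KO and 192 to 221 CPM in WT at 30 °C. Ucp1 averaged 7165 ± 1977 CPM in KO and 6178 ± 2462 CPM in WT at 22 °C, against 1786 ± 212 CPM in KO and 1518 ± 92.2 CPM in WT at 30 °C (SD, n = 4). All 11 brown adipocyte markers had counts in every library. Features of single libraries touch results below. Skeletal muscle markers (14 genes) held over 0.1% of counts in 5 libraries, up to 0.697% in KO at 22 °C replicate 1. Replicate 2 of WT at 22 °C had the highest share of its counts on the 50 genes, 5.52% against 3.72% to 4.32% in the other WT libraries at 22 °C, and the lowest share on mitochondrially encoded genes, 12.8% against 18.9% to 19.5%.

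The promoters of 4 members are shown because these genes, with Atp5a1, were called in the test for a genotype difference in temperature response (below). Those calls lay close to the threshold, and some members that were not called had differences as large. The promoter of Cox6b2 is shown because this gene moved against most members. All 5 were chosen with these results known. Each window runs from 250 bases before to 50 bases after the transcription start, 5′ to 3′ on the gene's strand, and is from RefSeq on GRCm38.p6. Sdha is at chr13:74350191-74350490, minus strand. Sdhd is at chr9:50603800-50604099, minus strand. Uqcrc1 is at chr9:108936398-108936697, plus strand. Cox6a1 is at chr5:115348909-115349208, minus strand, and Cox6b2 at chr7:4753045-4753344, minus strand. Capitals mark matches, on either strand, to the motifs described after the sequences.
Sdha: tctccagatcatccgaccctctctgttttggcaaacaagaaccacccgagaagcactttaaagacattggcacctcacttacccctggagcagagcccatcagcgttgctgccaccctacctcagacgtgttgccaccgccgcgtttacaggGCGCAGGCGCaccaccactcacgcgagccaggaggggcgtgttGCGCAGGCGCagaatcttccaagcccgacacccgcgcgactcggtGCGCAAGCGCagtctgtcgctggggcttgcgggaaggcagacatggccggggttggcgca
Sdhd: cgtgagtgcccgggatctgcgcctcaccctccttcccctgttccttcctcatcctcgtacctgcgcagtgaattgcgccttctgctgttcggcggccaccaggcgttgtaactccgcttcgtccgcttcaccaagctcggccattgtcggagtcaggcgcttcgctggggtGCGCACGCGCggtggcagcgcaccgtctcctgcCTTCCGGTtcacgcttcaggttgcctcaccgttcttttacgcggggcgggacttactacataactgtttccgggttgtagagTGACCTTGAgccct
Uqcrc1: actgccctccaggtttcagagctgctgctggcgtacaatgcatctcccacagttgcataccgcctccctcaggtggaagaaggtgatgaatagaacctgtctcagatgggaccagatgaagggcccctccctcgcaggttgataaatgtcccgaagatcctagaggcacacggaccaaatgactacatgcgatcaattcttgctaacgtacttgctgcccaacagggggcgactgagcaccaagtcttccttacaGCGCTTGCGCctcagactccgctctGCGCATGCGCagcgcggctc
Cox6a1: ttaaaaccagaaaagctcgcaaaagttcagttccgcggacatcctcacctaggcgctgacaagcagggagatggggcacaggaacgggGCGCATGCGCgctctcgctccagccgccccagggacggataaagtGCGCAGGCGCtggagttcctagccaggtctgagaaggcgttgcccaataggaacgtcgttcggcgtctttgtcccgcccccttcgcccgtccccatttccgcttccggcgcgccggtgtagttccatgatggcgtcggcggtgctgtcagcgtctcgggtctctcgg
Cox6b2: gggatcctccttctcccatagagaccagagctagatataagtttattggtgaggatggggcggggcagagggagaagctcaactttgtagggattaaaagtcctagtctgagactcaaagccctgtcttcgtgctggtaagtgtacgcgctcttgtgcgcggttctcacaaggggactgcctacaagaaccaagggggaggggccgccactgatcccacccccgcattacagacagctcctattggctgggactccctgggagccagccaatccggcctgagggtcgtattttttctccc

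A window was found for 35 of the 50 genes, and a gene with more than 1 window was counted once. The 4 motifs searched, on both strands, were GCGC, then any base, then TGCGC for NRF1, ACCGGAAG for the ETS factor GABP, TCAAGGTCA for the ERR receptors and AAGATGGCG for YY1, all factors known as regulators of mitochondrial genes. The NRF1 letters stood in a window of 10 of the 35 genes (28.6%), against 5.19% of all 27025 genes with windows of the same length. The GABP letters stood in 3 (8.57% against 2.60%), the ERR letters in 2 (5.71% against 0.466%) and the YY1 letters in 2 (5.71% against 1.64%). Sdha held 3 NRF1 matches, at -98, -55 and -10 from the start. Sdhd held an NRF1 match at -79, a GABP match at -46 and an ERR match at 37. Uqcrc1 held NRF1 matches at 6 and 31, and Cox6a1 at -162 and -117. Cox6b2 held none of these letters in its window. This does not set it apart, since only 14 of the 35 genes (40%) held any of the 4 motifs, against 9.3% of all genes. Cox6b1, Cox5a and Uqcr10, which moved with most members, also held none. A match describes the letters and not a bound site.

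The log2 fold change of 22 °C over 30 °C was above 0 for 43 of the 46 tested members in KO and for 41 in WT, and 43 had a larger value in WT than in KO. Over all 14103 genes tested it was above 0 for 7266 in KO and 6663 in WT, and 6966 had a larger value in WT. In KO, 21 of the 46 rose at 22 °C and 3 fell (Cox6b2, Cox4i2 and Atp5s), by edgeR's quasi-likelihood test at an adjusted p under 0.05. Of all 14103 genes tested in KO, 26.7% passed (13.8% higher and 13% lower). In WT, 40 members rose and 1, Cox6b2, fell, where 38.3% of all genes passed (20.5% higher and 17.8% lower). With upper-quartile in place of TMM scaling factors, 9 members rose and 3 fell in KO, and 38 rose and 2 fell in WT, while 1179 of all genes were higher and 2540 lower in KO, and 2196 higher and 3382 lower in WT. The median log2 fold change of the members was 0.28 in KO and 0.72 in WT, beside 0.02 and -0.03 over all genes tested. The 21 members that rose in KO all rose in WT too, where they are 21 of the 40 that rose; the 2 comparisons use different libraries. With a single library left out the count in KO was 9 to 18, lowest without replicate 2 of KO at 22 °C (where 1399 of all genes were higher, against 1943), and that in WT was 39 to 41. In bulk tissue, a change in the number of brown adipocytes and a change in RNA per cell cannot be told apart; 5 of 11 brown adipocyte markers rose at 22 °C in KO and 7 of 11 in WT. Markers of other cell types fell: 2 of 5 endothelial markers in KO and 4 of 5 in WT, and 4 of 5 macrophage markers in each genotype. The summed endothelial share of counts was 0.0699% to 0.0939% in KO and 0.0552% to 0.0739% in WT at 22 °C, against 0.106% to 0.120% in KO and 0.106% to 0.119% in WT at 30 °C. The macrophage share was 0.00717% to 0.00889% in KO and 0.0053% to 0.0145% in WT at 22 °C, against 0.0141% to 0.0168% in KO and 0.0129% to 0.0210% in WT at 30 °C. Of 8 smooth muscle and pericyte markers, 3 rose and 2 fell in KO, and 1 rose and 3 fell in WT. The part of these markers in the members' temperature response was not tested.

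**Figure D1:**
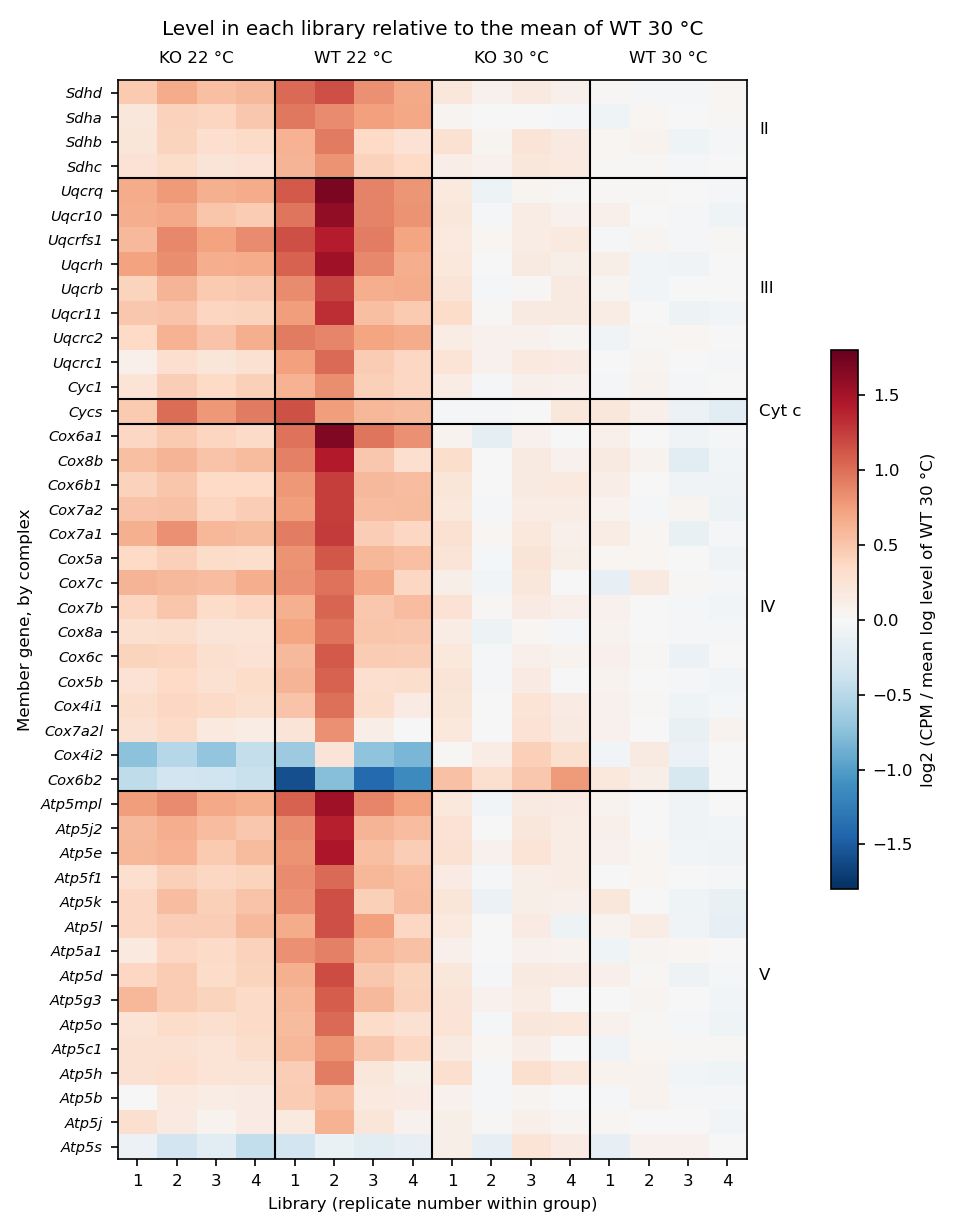
Level of 44 tested members (rows, by complex) in each of the 16 libraries (columns, by group and replicate number), as log2 of CPM over the mean log level of WT at 30 °C. Cox6a2 and Atp5g1 are left out; of the 46, they had the highest rank correlations with the skeletal muscle marker share (rho 0.92 and 0.43). Replicate 2 of WT at 22 °C is the darkest column, and Cox4i2, Cox6b2 and Atp5s are the rows that go the other way.

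Between the genotypes, 16 members passed the test at 22 °C and none did at 30 °C. In KO at 22 °C, 15 members were lower than in WT and 1, Cox6b2, was higher, where 17.6% of all genes passed (7.52% higher and 10.1% lower). The median log2 fold change was -0.30 over the members and 0.02 over all genes. When only the 8 libraries at 22 °C were fitted, 2 members (Sdha and Cox6a1) were lower, beside 441 of 13149 genes, and Sdhd, Uqcrc1, Uqcr10, Uqcrq, Cox5a, Cox6b1, Cox8a and Atp5a1 did not pass (edgeR adjusted p from 0.0869 to 0.148). At 30 °C edgeR called 0 of the 46, with a smallest adjusted p of 0.972, beside 0.0425% of all genes (0.0284% higher and 0.0142% lower); 1 member, Cox6b2, had an unadjusted p under 0.05, DESeq2 called 0 and limma-voom called 1. The median log2 difference at 30 °C was 0.12, and 45 of 46 were above 0, beside 7628 of all 14103 genes. An unadjusted edgeR p under 0.05 was found for 608 of all genes, and limma-voom called 23 higher and 21 lower. The interaction, the KO effect at 22 °C minus that at 30 °C, was called for 5 members, all negative, where 3.14% of all genes passed (0.752% higher and 2.39% lower). The interaction was below 0 in 43 of 46 members, with a median of -0.43, and in 6966 of all 14103 genes. An unadjusted edgeR p under 0.05 was found for 29 members and for 2976 of all genes. The 5 called members were Sdha, Sdhd, Uqcrc1, Cox6a1 and Atp5a1. These calls lay close to the threshold: leaving out any single KO library or WT library at 30 °C gave 0 or 1 called members, leaving out a single WT library at 22 °C gave 2 (replicate 1), 8 (replicate 2 or 3) or 17 (replicate 4), and DESeq2 called 15. The calls over all genes moved too: 337 were negative with every library, 123 to 287 without a KO library or a WT library at 30 °C, 298 to 378 without replicate 1, 2 or 3 of WT at 22 °C, 718 without replicate 4 and 747 by DESeq2. The genotype comparisons and the temperature comparisons use the same libraries, so they are not separate evidence.

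Libraries varied within WT at 22 °C more than in the other groups. Over the 45 members with a count in every library, the median log2 level relative to WT at 30 °C was 0.37, 0.45, 0.36 and 0.40 in KO at 22 °C, and 0.75, 1.05, 0.50 and 0.44 in WT at 22 °C. It was 0.20, -0.01, 0.15 and 0.10 in KO at 30 °C, and 0.06, 0.03, -0.03 and -0.03 in WT at 30 °C. The lowest WT library at 22 °C thus lay just under the highest KO library, and replicate 2 of WT stood furthest up. Without that WT replicate, 13 members were lower in KO at 22 °C and the median log2 difference was -0.15. Without replicate 4 of WT at 22 °C, 31 were lower and the median was -0.39, and without replicate 3 of KO at 22 °C, 9 were lower. Over all genes, 1225, 1762 and 1084 were lower in these 3 fits, against 1421 with every library.

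A measure of circadian clock phase, log2 of the CPM of Dbp (a clock output gene) minus that of Arntl (a core clock gene), also separated the genotypes at 22 °C. It was -3.48, -2.22, -2.70 and -2.55 in KO and 0.91, 1.79, 0.79 and -0.81 in WT, with no overlap. At 30 °C it ran from -1.37 to 0.26 in KO and from -0.57 to 0.40 in WT, which overlap. In WT at 22 °C the library with the highest value and the library with the lowest were also those with the highest and lowest member medians. With this measure as a covariate, 0 members were lower in KO at 22 °C and the median log2 difference was 0.19. Over all 14103 genes the same fit called 22 higher and 82 lower, against 1061 and 1421 without the covariate, so calls were lost across all genes. The median log2 difference over all genes was 0.003 with the covariate and 0.02 without it. Over the members it was 0.19 with the covariate and -0.30 without it. Clock phase and genotype cannot be told apart at 22 °C in these libraries.

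Complex II is the only complex of the chain with no mitochondrially encoded subunit. At 22 °C, 2 of its genes, Sdha and Sdhd, rose in KO, and all 4 rose in WT. Of all genes tested, 13.8% rose in KO and 20.5% in WT. At 22 °C, Sdha, Sdhc and Sdhd were lower in KO than in WT, beside 10.1% of all genes. Sdha, the flavoprotein that oxidises succinate (chr13:74322254-74350280, minus strand, GRCm38), had 2503, 2890, 2832 and 3019 CPM in KO at 22 °C, against 4204, 3896, 3599 and 3504 in WT at 22 °C, and 2232, 2157, 2165 and 2138 in KO at 30 °C, against 2060, 2231, 2179 and 2202 in WT at 30 °C. Its KO libraries at 22 °C all lay under the WT ones, its 22 °C libraries all lay above those at 30 °C in both genotypes, and KO and WT overlapped at 30 °C. Its 22 °C level was 1.29-fold that at 30 °C in KO (log2 0.37, SE 0.072, edgeR adjusted p = 0.00167) and 1.75-fold in WT (log2 0.81, SE 0.072, edgeR adjusted p = 1.2e-06). The KO to WT log2 fold change was -0.44 at 22 °C (SE 0.072, edgeR adjusted p = 0.0011) and 0.00 at 30 °C, and the interaction was -0.44 (SE 0.102, edgeR adjusted p = 0.0323).

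Sdhd, a membrane anchor of the complex (chr9:50596357-50603812, minus strand), had 855, 981, 897 and 922 CPM in KO at 22 °C, against 1245, 1369, 1084 and 989 in WT at 22 °C, and 711, 648, 685 and 652 in KO at 30 °C, against 621, 605, 605 and 628 in WT at 30 °C. The groups lay apart at 22 °C, with KO lower, and also at 30 °C, with KO higher. Its log2 fold change with temperature was 0.44 in KO and 0.93 in WT (edgeR adjusted p = 0.00201 and 1.94e-06), its KO to WT log2 fold change was -0.36 at 22 °C (edgeR adjusted p = 0.0119) and 0.13 at 30 °C (edgeR adjusted p = 0.998), and the interaction was -0.49 (SE 0.123, edgeR adjusted p = 0.0441). Sdhb, the iron-sulfur subunit, had 1206, 1363, 1276 and 1320 CPM in KO at 22 °C, against 1605, 1978, 1332 and 1246 in WT at 22 °C, and 1251, 1072, 1216 and 1155 in KO at 30 °C, against 1062, 1080, 982 and 1026 in WT at 30 °C. KO and WT overlapped at both temperatures. Its log2 fold change with temperature was 0.14 in KO (edgeR adjusted p = 0.391), and it rose in WT (log2 0.57, edgeR adjusted p = 0.00111). Sdhc, the other anchor, averaged 676 ± 20.6 CPM in KO and 826 ± 121 CPM in WT at 22 °C, a log2 fold change of -0.29 (edgeR adjusted p = 0.0281).

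Of the 9 complex III genes, 7 rose at 22 °C in KO and all 9 in WT, and the median log2 change with temperature was 0.45 in KO and 0.87 in WT. Of all genes tested, 13.8% rose in KO and 20.5% in WT. At 22 °C, 5 complex III genes were lower in KO than in WT (Uqcrc1, Uqcrc2, Uqcrb, Uqcr10 and Uqcrq), beside 10.1% of all genes. Uqcrc1, a core subunit of the matrix side (chr9:108936633-108949623, plus strand), had 1537, 1776, 1674 and 1742 CPM in KO at 22 °C, against 2390, 2915, 1975 and 1869 in WT at 22 °C, and 1710, 1511, 1630 and 1600 in KO at 30 °C, against 1434, 1490, 1430 and 1402 in WT at 30 °C. KO lay wholly under WT at 22 °C and wholly above it at 30 °C. Its temperature log2 fold change was 0.06 in KO (SE 0.110, edgeR adjusted p = 0.718) and 0.67 in WT (SE 0.110, edgeR adjusted p = 0.000245). The KO to WT log2 fold change was -0.44 at 22 °C (edgeR adjusted p = 0.0131) and 0.16 at 30 °C (edgeR adjusted p = 0.998), with an interaction of -0.61 (SE 0.155, edgeR adjusted p = 0.0473).

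The members of complex III that carry the electrons moved with temperature in both genotypes. Uqcrfs1, the Rieske iron-sulfur protein, had 1069, 1298, 1175 and 1288 CPM in KO at 22 °C, against 1590, 1900, 1347 and 1165 in WT at 22 °C, and 802, 727, 779.7 and 807 in KO at 30 °C, against 692, 736, 699 and 721 in WT at 30 °C. The temperatures lay apart in both genotypes, and the genotypes overlapped at both temperatures. The rise was 1.55-fold in KO (log2 0.63, SE 0.117, edgeR adjusted p = 0.00121) and 2.11-fold in WT (log2 1.08, SE 0.117, edgeR adjusted p = 7.14e-06), while KO against WT at 22 °C was -0.31 (edgeR adjusted p = 0.0721). Cyc1, the cytochrome that passes electrons to cytochrome c, had 1361, 1567, 1474 and 1551 CPM in KO at 22 °C, against 1777, 2055, 1539 and 1484 in WT at 22 °C, and 1259, 1122, 1223 and 1205 in KO at 30 °C, against 1121, 1196, 1135 and 1138 in WT at 30 °C. Again the genotypes overlapped. It rose by 0.31 on the log2 scale in KO and by 0.58 in WT (edgeR adjusted p = 0.0208 and 0.000163).

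Among the small subunits around the complex III core, Uqcrq and Uqcr10 had the largest log2 fold changes in WT of the complex. Uqcrq had 818, 877, 808 and 824 CPM in KO at 22 °C, against 1107, 1671, 963 and 895 in WT at 22 °C, and 585, 485, 535 and 525 in KO at 30 °C, against 523, 522, 520.0 and 503 in WT at 30 °C. Its genotypes lay apart at 22 °C and overlapped at 30 °C, and its KO to WT log2 fold change at 22 °C was -0.48 (SE 0.143, edgeR adjusted p = 0.0323). Uqcr10 had 498, 509, 447 and 432 CPM in KO at 22 °C, against 617, 955, 584 and 554 in WT at 22 °C, and 366, 313, 347 and 333 in KO at 30 °C, against 338, 318, 309.6 and 300.1 in WT at 30 °C. It also lay apart at 22 °C only, at -0.52 (SE 0.136, edgeR adjusted p = 0.0169). At 22 °C against 30 °C, Uqcrq was 1.56-fold in KO and 2.24-fold in WT, and Uqcr10 1.39-fold in KO and 2.14-fold in WT, all called. The interaction was -0.52 for Uqcrq and -0.63 for Uqcr10 and did not pass the test for either (edgeR adjusted p = 0.16 and 0.0873).

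Cytochrome c, which shuttles electrons between complexes III and IV, overlapped between the genotypes at each temperature and rose at 22 °C in both. Cycs had 15.7, 22.8, 19.6 and 21.7 CPM in KO at 22 °C, against 25.1, 19.0, 17.1 and 16.9 in WT at 22 °C, and 11.1, 11.1, 11.4 and 13.1 in KO at 30 °C, against 13.0, 12.1, 10.6 and 9.92 in WT at 30 °C. All 22 °C libraries lay above all 30 °C libraries of the same genotype. Its log2 fold change with temperature was 0.77 in KO (SE 0.144, edgeR adjusted p = 0.00126) and 0.78 in WT (SE 0.143, edgeR adjusted p = 0.000601), and the interaction was 0.00 (SE 0.201, edgeR adjusted p = 0.994). Every 50-base window of its coding sequence also occurs in another annotated transcript, and how reads with more than 1 match were counted is not given in the sources used here, so its level is uncertain.

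**Figure D2:**
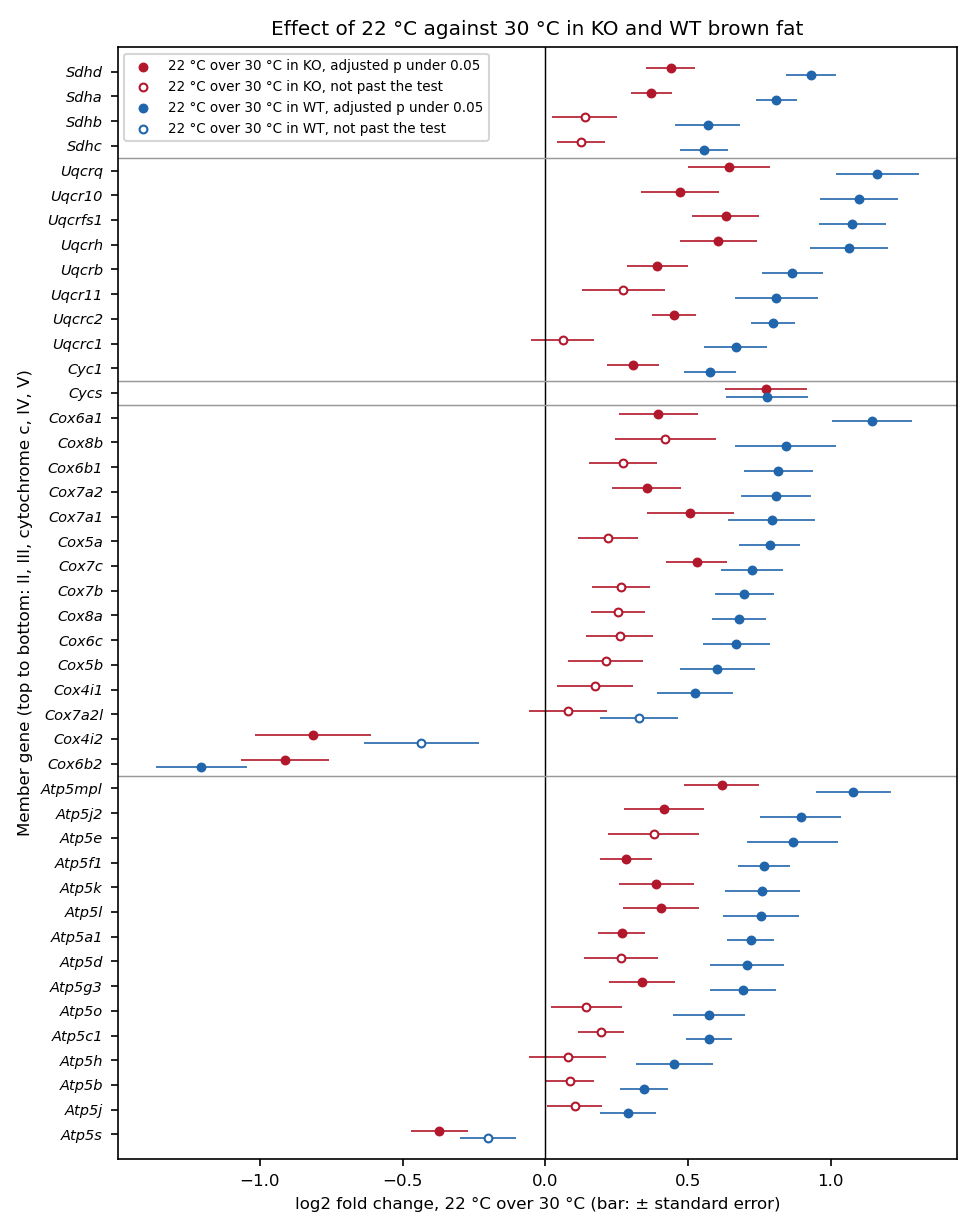
Log2 fold change of 22 °C over 30 °C for 44 tested members (rows, by complex) in KO (red) and WT (blue), with bars of 1 standard error and filled points for an edgeR adjusted p under 0.05. The KO point lies to the left of the WT point in all rows but Cox6b2, and nearly coincides with it for Cycs.

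Complex IV held both the common pattern and the members that went against it. Of its 16 tested genes, 4 rose (25%) and 2 fell (12.5%) at 22 °C in KO, and 12 rose (75%) and 1 fell (6.25%) in WT. Of all genes tested, 13.8% rose and 13% fell in KO, and 20.5% rose and 17.8% fell in WT. At 22 °C, 4 complex IV genes (25%) were lower in KO than in WT (Cox5a, Cox6a1, Cox6b1 and Cox8a) and Cox6b2 was higher. Of all genes, 10.1% were lower and 7.52% higher. Cox6a1, the widely expressed form of a regulatory subunit (chr5:115345642-115348981, minus strand), had 1124, 1207, 1135 and 1109 CPM in KO at 22 °C, against 1724, 2760, 1704 and 1535 in WT at 22 °C, and 907, 773, 921 and 877 in KO at 30 °C, against 933, 873, 833 and 852 in WT at 30 °C. Every KO library at 22 °C lay under every WT one, replicate 2 of WT stood far above the rest, and the genotypes overlapped at 30 °C. The level at 22 °C was 1.32-fold that at 30 °C in KO (log2 0.40, SE 0.138, edgeR adjusted p = 0.0453) and 2.21-fold in WT (log2 1.15, SE 0.140, edgeR adjusted p = 1.88e-05). KO was at 0.592 of WT at 22 °C (log2 -0.76, SE 0.139, edgeR adjusted p = 0.00226), and the interaction was -0.75 (SE 0.196, edgeR adjusted p = 0.0493).

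Cox4i1 and Cox5a code for subunits that join the mitochondrially encoded core early in assembly. Cox4i1 had 1632, 1694, 1658 and 1592 CPM in KO at 22 °C, against 1871, 2587, 1619 and 1446 in WT at 22 °C, and 1526, 1304, 1552 and 1446 in KO at 30 °C, against 1382, 1321, 1235 and 1291 in WT at 30 °C. Genotypes overlapped at both temperatures, and WT spread widely at 22 °C. Its temperature log2 fold change was 0.17 in KO (edgeR adjusted p = 0.348) and 0.52 in WT (edgeR adjusted p = 0.00558). Cox5a had 656, 688, 644 and 637 CPM in KO at 22 °C, against 898, 1113, 771 and 744 in WT at 22 °C, and 599.6, 500.3, 602 and 552 in KO at 30 °C, against 521, 522, 513 and 488 in WT at 30 °C. At 22 °C all KO libraries were under all WT libraries, with a log2 fold change of -0.43 (SE 0.106, edgeR adjusted p = 0.0133), and the interaction was -0.57 (edgeR adjusted p = 0.0521).

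Cox6b2, the form of subunit 6B known from testis (chr7:4751792-4753094, minus strand), did the opposite of its partner. It had 8.92, 9.61, 9.49 and 9.26 CPM in KO at 22 °C, against 4.09, 7.21, 4.63 and 5.52 in WT at 22 °C, and 17.5, 14.9, 17.1 and 20.7 in KO at 30 °C, against 13.9, 13.1, 9.96 and 12.2 in WT at 30 °C. None of the 4 groups overlapped another: KO lay above WT at each temperature, and 22 °C lay under 30 °C in each genotype. Its 22 °C level was 0.531 of that at 30 °C in KO (log2 -0.91, SE 0.155, edgeR adjusted p = 0.0007) and 0.434 in WT (log2 -1.21, SE 0.159, edgeR adjusted p = 3.79e-05). KO was 1.75-fold WT at 22 °C (log2 0.81, SE 0.160, edgeR adjusted p = 0.00382) and 1.43-fold at 30 °C (log2 0.51, SE 0.153, edgeR adjusted p = 0.972). Its partner Cox6b1, the common form, had 914, 967, 882 and 883 CPM in KO at 22 °C, against 1174, 1622, 1026 and 1010 in WT at 22 °C, and 797, 681, 766 and 773 in KO at 30 °C, against 744, 689, 658 and 655 in WT at 30 °C. Those KO libraries lay under WT at 22 °C (log2 -0.41, edgeR adjusted p = 0.0309) and the genotypes overlapped at 30 °C. As a share of the counts of both genes, Cox6b2 made up 1.01% ± 0.046 in KO and 0.445% ± 0.080 in WT at 22 °C, and 2.27% ± 0.227 in KO and 1.76% ± 0.178 in WT at 30 °C (SD, n = 4).

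Cox4i2, the lung form of subunit 4 and known as responsive to oxygen, was lower at 22 °C in KO. It had 3.20, 3.73, 3.27 and 3.98 CPM in KO at 22 °C, against 3.40, 6.30, 3.25 and 3.02 in WT at 22 °C, and 5.44, 5.86, 7.17 and 6.54 in KO at 30 °C, against 5.17, 5.96, 4.95 and 5.38 in WT at 30 °C. Its temperatures lay apart in KO, while replicate 2 of WT at 22 °C reached above all WT libraries at 30 °C. The log2 fold change was -0.81 in KO (SE 0.203, edgeR adjusted p = 0.00867) and -0.43 in WT (SE 0.202, edgeR adjusted p = 0.102), with an interaction of -0.38 (edgeR adjusted p = 0.463). Its share of the counts of Cox4i2 and Cox4i1 was 0.215% ± 0.025 in KO and 0.208% ± 0.026 in WT at 22 °C, against 0.428% ± 0.049 in KO and 0.409% ± 0.032 in WT at 30 °C. On this scale the temperatures lay apart in both genotypes, also for replicate 2 of WT.

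**Figure D3:**
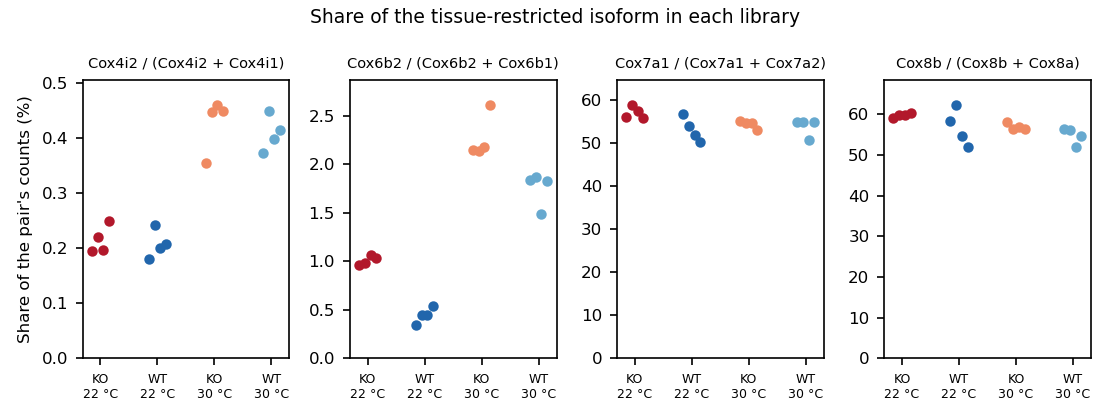
Share of the less widespread isoform in the summed counts of its pair, in percent, for 4 complex IV subunits, with 1 point per library in each of the 4 groups. The shares of Cox4i2 and Cox6b2 are lower at 22 °C than at 30 °C in both genotypes, and those of Cox7a1 and Cox8b stay between 50.4% and 62.2% in every library. Counts are not adjusted for gene length.

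The isoforms of complex IV typical of muscle and brown fat, Cox7a1 and Cox8b, held a little over their widespread partners' raw counts in all groups. These counts are not adjusted for gene length. Per kilobase of merged annotated exons, the mean over the 16 libraries was 912 CPM for Cox7a1 and 426 CPM for Cox7a2. It was 2954 CPM for Cox8b and 1270 CPM for Cox8a. Cox7a1 had 560.2, 634, 543 and 533 CPM in KO at 22 °C, against 682, 862, 490.1 and 464 in WT at 22 °C, and 434, 368, 411 and 385 in KO at 30 °C, against 393, 369.6, 328 and 352 in WT at 30 °C. It overlapped between genotypes at both temperatures, and it rose in KO (log2 0.51, edgeR adjusted p = 0.023) and in WT (log2 0.79, edgeR adjusted p = 0.000854). Cox7a2, the widespread form, had 440.1, 444, 402 and 421 CPM in KO at 22 °C, against 519, 732, 453 and 457 in WT at 22 °C, and 353, 304, 339.5 and 339 in KO at 30 °C, against 322, 303, 319 and 289 in WT at 30 °C. Its rise was 0.35 in KO and 0.81 in WT on the log2 scale (edgeR adjusted p = 0.0416 and 0.000116), and KO libraries at 22 °C lay under WT without passing the test (log2 -0.34, edgeR adjusted p = 0.0635). Cox7a1 held 57.0% ± 1.38 of the pair's counts in KO and 53.3% ± 2.79 in WT at 22 °C, and 54.5% ± 0.885 in KO and 53.8% ± 2.13 in WT at 30 °C.

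Cox8b had the highest level per kilobase of merged exons of all members, with a mean of 2954 CPM per kb over the 16 libraries, ahead of Atp5b (1750) and Cox6a1 (1715). This length joins the exons of every annotated transcript of a gene and can exceed that of the transcript present. It was 360 bases for Cox8b (coding sequence 210) and 4237 for Atp5b (coding sequence 1587), so the order is uncertain. It had 1146, 1208, 1132 and 1178 CPM in KO at 22 °C, against 1487, 2117, 1111 and 978 in WT at 22 °C, and 985, 785, 883 and 831 in KO at 30 °C, against 884, 828, 695 and 766 in WT at 30 °C. At 22 °C the KO libraries lay inside the range of the WT libraries. Its temperature log2 fold change was 0.42 in KO (SE 0.176, edgeR adjusted p = 0.0894), and it rose in WT (log2 0.84, SE 0.177, edgeR adjusted p = 0.00161). Cox8a, the widespread form, had 798, 813, 763 and 776 CPM in KO at 22 °C, against 1063, 1288, 922 and 908 in WT at 22 °C, and 715, 611, 668 and 645 in KO at 30 °C, against 682, 646, 644 and 636 in WT at 30 °C. KO lay under WT at 22 °C (log2 -0.41, SE 0.0945, edgeR adjusted p = 0.00924) and the genotypes overlapped at 30 °C. Cox8b held 59.7% ± 0.549 of the pair's counts in KO and 56.8% ± 4.49 in WT at 22 °C, and 56.9% ± 0.801 in KO and 54.8% ± 2.08 in WT at 30 °C. Cox7a2l, which helps complexes III and IV join into supercomplexes, did not pass the test in any comparison, with a temperature log2 fold change of 0.08 in KO and 0.33 in WT.

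In complex V, 7 of 16 tested genes rose (43.75%) and 1 fell (6.25%) at 22 °C in KO, and 14 rose (87.5%) and none fell in WT. Of all genes tested, 13.8% rose and 13% fell in KO, and 20.5% rose and 17.8% fell in WT. Between the genotypes at 22 °C, 18.75% of the complex V genes were lower in KO, beside 10.1% of all genes. Against WT at 22 °C, 3 were lower in KO: Atp5a1, Atp5c1 and Atp5f1, which code for parts of the catalytic head, its stalk and the stator. Atp5a1, the alpha subunit of the head, had 3851, 4385, 4305 and 4554 CPM in KO at 22 °C, against 6008, 6379, 5132 and 4905 in WT at 22 °C, and 3622, 3431, 3573 and 3564 in KO at 30 °C, against 3238, 3519, 3484 and 3373 in WT at 30 °C. All KO libraries at 22 °C lay under all WT libraries, and the genotypes overlapped at 30 °C. The temperature log2 fold change was 0.27 in KO (SE 0.082, edgeR adjusted p = 0.0251) and 0.72 in WT (SE 0.083, edgeR adjusted p = 1.1e-05), the KO to WT log2 fold change at 22 °C was -0.39 (SE 0.082, edgeR adjusted p = 0.00526), and the interaction was -0.45 (SE 0.116, edgeR adjusted p = 0.0481). Atp5b, the beta subunit that holds the catalytic sites, had 6796, 7635, 7434 and 7497 CPM in KO at 22 °C, against 9319, 9996, 7678 and 7498 in WT at 22 °C, and 7145, 6661, 7044 and 6827 in KO at 30 °C, against 6674, 7093, 6681 and 6671 in WT at 30 °C. Genotypes overlapped at both temperatures. Its temperature log2 fold change was 0.09 in KO (edgeR adjusted p = 0.487) and 0.35 in WT (edgeR adjusted p = 0.00465), among the smaller rises there.

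**Figure D4:**
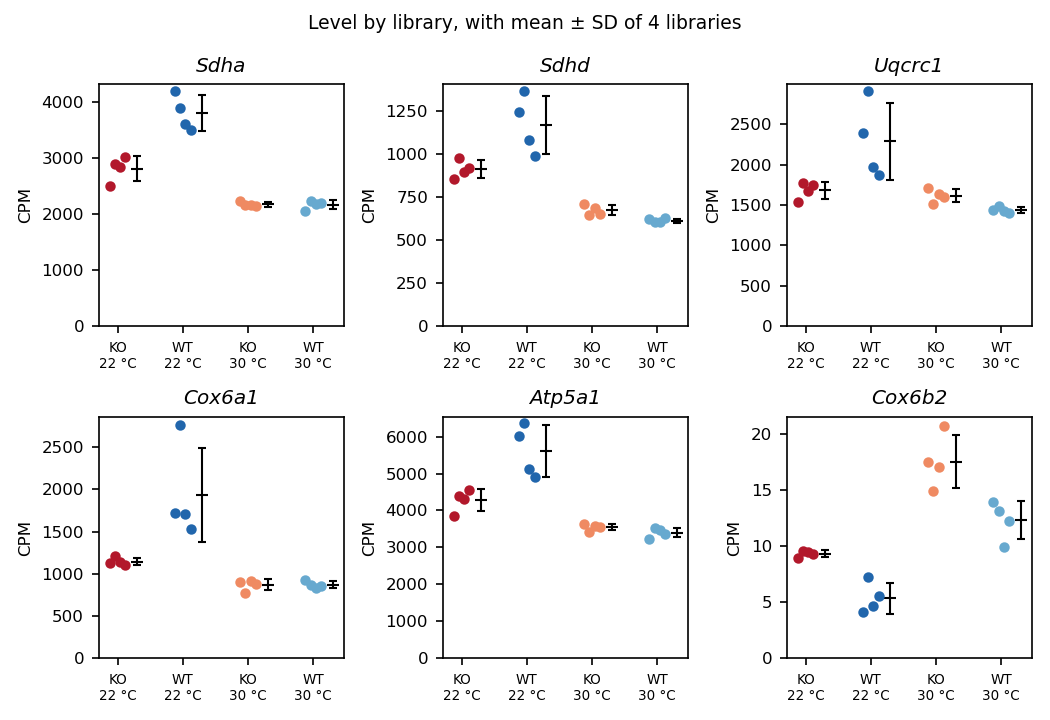
Level in CPM (axis from 0) of the 5 members called in the interaction and of Cox6b2, with 1 point per library and the mean ± SD of 4 libraries beside each group. For the 5, KO at 22 °C lies under WT at 22 °C without overlap; Cox6b2 lies the other way round.

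Subunit c, of which the rotor ring is built, is coded for by Atp5g1, Atp5g2 and Atp5g3. Atp5g3 held 98.5% to 99.8% of the counts of the 3 genes in every library. The 50-base windows of the coding sequences of Atp5g1 (99.7%) and Atp5g2 (100%) nearly all occur in other transcripts, while none of Atp5g3 do, so the share and the levels of Atp5g1 and Atp5g2 are uncertain for the same reason as that of Cycs. Atp5g3 had 328, 297, 286 and 275 CPM in KO at 22 °C, against 328, 462, 325 and 288 in WT at 22 °C, and 255, 228, 238 and 217 in KO at 30 °C, against 218, 225, 215 and 210.0 in WT at 30 °C. The temperatures lay apart and the genotypes overlapped, with a log2 fold change of 0.34 in KO and 0.69 in WT (edgeR adjusted p = 0.0405 and 0.000266). Atp5s, an associated protein known as factor B, had 19.6, 16.6, 18.2 and 15.5 CPM in KO at 22 °C, against 16.7, 19.5, 18.5 and 19.0 in WT at 22 °C, and 22.7, 19.1, 25.1 and 23.5 in KO at 30 °C, against 19.0, 22.4, 22.2 and 21.0 in WT at 30 °C. It was lower at 22 °C in KO with slightly overlapping libraries (log2 -0.37, SE 0.099, edgeR adjusted p = 0.0125), and its value in WT was -0.20 (edgeR adjusted p = 0.123).

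Apart from Cox6a2 and Atp5g1, the remaining tested members of complexes III to V all had positive temperature log2 fold changes in both genotypes. Atp5mpl, a small membrane subunit, had the largest in complex V, 0.62 in KO and 1.08 in WT (edgeR adjusted p = 0.00309 and 1.87e-05), and Atp5j, of the peripheral stalk, the smallest that passed in WT, 0.29 (edgeR adjusted p = 0.0275). Coding sequence is shared with other annotated transcripts, mostly pseudogenes, for several of these: every 50-base window of Cox7c and Atp5l, 72.9% of those of Uqcrb, 67.1% of Atp5h, 61.5% of Cox5b, 53.6% of Cox6c and 50.1% of Atp5f1. Among the 5 members called in the interaction, Cox6a1 shared 22.3% of its windows and the other 4 shared none.

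Cox6a2, the heart and skeletal muscle form of subunit 6A, and Atp5g1 did not follow the other members. The counts of Cox6a2 were 654, 0, 0 and 55 in KO at 22 °C, against 5, 19, 0 and 18 in WT at 22 °C, and 99, 377, 2 and 0 in KO at 30 °C, against 11, 302, 16 and 87 in WT at 30 °C. The high values were in the libraries with the most skeletal muscle marker counts, which held 0.697% in KO at 22 °C replicate 1, 0.436% in KO at 30 °C replicate 2, 0.287% in WT at 30 °C replicate 2 and 0.130% in KO at 30 °C replicate 1. Over the 16 libraries, Spearman's rho between the Cox6a2 level and that share was 0.92, against 0.43 for Atp5g1 and -0.27 to 0.09 for the other 44. Neither gene was called in any comparison, with a KO to WT log2 fold change at 22 °C of 4.17 for Cox6a2 and 1.41 for Atp5g1. Without the 5 libraries with over 0.1% of such counts, 4 members rose at 22 °C in KO and 2 were lower in KO than in WT at 22 °C, while the medians were 0.29 and -0.30. In that fit, 776 of all genes were higher at 22 °C in KO, against 1943 with every library, and 705 were lower in KO than in WT at 22 °C, against 1421.

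**Figure D5:**
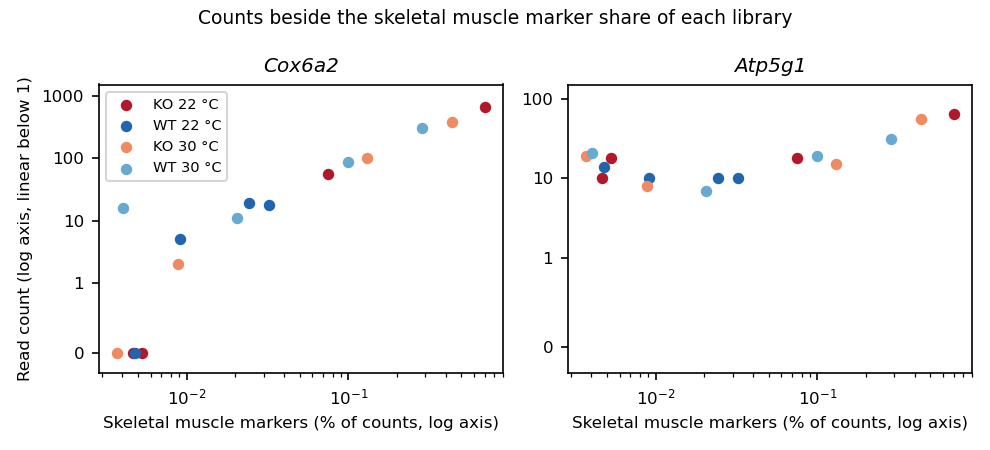
Read counts of Cox6a2 and Atp5g1 (log axes, linear below 1) against the percent of a library's counts on 14 skeletal muscle markers (log axis), 1 point per library, coloured by group. Cox6a2 reaches 654 counts in the library with the highest share and is at 0 in 4 of the 5 libraries with the lowest shares; Atp5g1 is raised mainly in the few libraries at the right.

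Of the mitochondrially encoded genes for subunits of complexes III to V, 2 could be tested, and neither passed as higher at 22 °C. Other genes of the mitochondrial genome are not described here. Of the 6 listed that code for subunits of complexes III to V, mt-Co1 and mt-Cytb carried nearly all counts, and mt-Co2, mt-Co3, mt-Atp6 and mt-Atp8 had at most 1 count in any library. Transcripts of these 4 are normally abundant, and how mitochondrial reads were counted is not given in the sources used here, so the values of mt-Co1 and mt-Cytb, and the ratio made from them, are uncertain. mt-Co1 fell by 0.53 on the log2 scale at 22 °C in KO (edgeR adjusted p = 0.00608) and by 0.64 in WT (edgeR adjusted p = 0.000974), and mt-Cytb was at 0.00 in KO and -0.02 in WT. The summed CPM of mt-Co1 and mt-Cytb over that of the nuclear members of complexes III to V was 4.10, 3.46, 3.60 and 3.39 in KO at 22 °C, against 2.60, 1.44, 2.96 and 3.10 in WT at 22 °C, and 5.02, 5.75, 5.42 and 4.83 in KO at 30 °C, against 4.60, 4.82, 4.70 and 5.36 in WT at 30 °C. Every library at 22 °C had a lower ratio than every library at 30 °C, and at 22 °C all KO libraries were higher than all WT libraries.

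The proteins that assemble these complexes were measured as a list of 38 genes, of which 36 were tested. At 22 °C 14 rose and 1 fell in KO, and 30 rose and none fell in WT, and the median log2 change was 0.24 in KO and 0.58 in WT. Of all genes tested, 13.8% rose and 13% fell in KO, and 20.5% rose and 17.8% fell in WT. At 22 °C, 10 were lower in KO than in WT and none higher, beside 10.1% lower and 7.52% higher of all genes. The interaction was called for 5, all negative (Cox19, Lrpprc, Higd1a, Taco1 and Uqcc1), beside 2.39% negative and 0.752% positive of all genes. Cox19, which takes part in copper delivery to complex IV, was at 46.7 ± 0.628 CPM in KO and 102 ± 25.6 CPM in WT at 22 °C, and at 34.1 ± 1.73 CPM in KO and 39.7 ± 1.60 CPM in WT at 30 °C. Its KO to WT log2 fold change was -1.12 at 22 °C (SE 0.125, edgeR adjusted p = 3.75e-05), and the interaction was -0.90 (SE 0.176, edgeR adjusted p = 0.0149). Uqcc1, needed for cytochrome b in complex III, was the one that fell in KO (log2 -0.19, edgeR adjusted p = 0.0438) and it rose in WT (log2 0.22, edgeR adjusted p = 0.0163). Lrpprc, which stabilises mitochondrial mRNAs, and Taco1, a translation factor for mt-Co1, had interactions of -0.50 and -0.48 (edgeR adjusted p = 0.021 and 0.0485). Of the associated subunits, Ndufa4 and Usmg5 were lower in KO at 22 °C, at -0.34 each (edgeR adjusted p = 0.0372 and 0.0375), and Atpif1, the ATP synthase inhibitor, passed in none of the comparisons.

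Markers of other cell types moved beside the genotype difference at 22 °C, where 7.52% of all genes were higher and 10.1% lower in KO. Of 5 endothelial markers 3 were higher in KO, with summed shares of 0.0699% to 0.0939% of counts in KO and 0.0552% to 0.0739% in WT. Of 8 smooth muscle and pericyte markers 6 were higher and 1 lower, with shares of 0.0751% to 0.0946% in KO and 0.0561% to 0.0693% in WT. None of 14 skeletal muscle markers and none of 5 macrophage markers passed. For brown adipocyte markers, 1 of 11 was higher and 1 lower, with shares of 1.79% to 2.37% in KO and 1.67% to 2.74% in WT. All endothelial, smooth muscle and macrophage markers had counts in every library, and their part in the member differences was not tested.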

How the data were processed

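The authors deposited unnormalised read counts by Ensembl identifier, with a column for each library, from total RNA of interscapular brown fat. STAR 2.4.2a, FastQC 0.10.1 and edgeR 3.14.0, with builds GRCm38 and mm10, are named in the submitters' processing notes. For the counting program, its strand setting and its treatment of reads with several matches, nothing is given in the sources used here, so overlapping genes on opposite strands and near-identical copies cannot be told apart.

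Symbols were found for 37607 of 38924 identifiers; the other 1317 held at most 0.132% of a library's counts. All 16 libraries, 12751528 to 23866743 counts each, were fitted in 1 quasi-likelihood model (R 4.3.3, edgeR 4.0.16) with TMM factors and a term per group, on the 14103 of 24818 genes that passed filterByExpr (minimum count 10). The typical biological coefficient of variation was 22.5%. A gene was called at an adjusted p (Benjamini-Hochberg, over all genes) under 0.05. The standard error is the log2 fold change over the square root of F. Levels are CPM, as mean ± SD. The script was tested on simulated counts. Alternatives were DESeq2 1.42.0, limma-voom (limma 3.58.1), other scaling factors and filters, only the groups compared, a replicate block, each library left out, a skeletal muscle covariate or the 5 libraries with over 0.1% muscle counts (muscle-bearing) left out, and a covariate for clock phase. For shared sequence, 50-base windows of each GENCODE M21 coding sequence were looked for in all other transcripts.

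Members, lists, alternatives and the rule for naming genes were chosen with earlier results of these data known. The rule gives values for core subunits, isoform pairs, the 3 highest and 3 lowest log2 fold changes per comparison, members called in the interaction and members called against the majority.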

Additional observations from a re-analysis of the deposited data

Results flagged for a closer look

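In all, 124 groups of 4 libraries were examined. They covered 29 members taken by the naming rule, the summed level of all members and the ratio of mitochondrial to nuclear transcripts. Of these groups, 9 held a library far from the other 3, where chance gives about 1 in 20 for independent groups. Members vary together within a library, so that rate is only a guide. Cox7b2 and Cox8c were at 0 in every library and could not be flagged. In WT at 22 °C, replicate 2 stood above the rest for Cox6a1 (2760 CPM, others 1535 to 1724), Uqcr10 (955.4 CPM, others 554 to 617.4) and Cox4i2 (6.30 CPM, others 3.02 to 3.40). Libraries with many skeletal muscle marker counts stood above the rest for Cox6a2 (44.5 CPM in KO at 22 °C replicate 1, others 0 to 3.27) and Atp5g1 (4.36 CPM in KO at 22 °C replicate 1, others 0.612 to 1.20, and 3.29 CPM in KO at 30 °C replicate 2, others 0.604 to 1.06). Cycs was at 13.1 CPM in KO at 30 °C replicate 4, with the others at 11.1 to 11.4. Atp5b was at 7093 CPM in WT at 30 °C replicate 2 (others 6671 to 6681), and Uqcrq at 502.8 CPM in WT at 30 °C replicate 4 (others 520.0 to 523.3).

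By edgeR's interaction test, the temperature response differed between KO and WT for 5 members, all close to the threshold. The log2 interaction was -0.44 for Sdha, -0.49 for Sdhd, -0.61 for Uqcrc1, -0.75 for Cox6a1 and -0.45 for Atp5a1, with adjusted p-values between 0.0323 and 0.0493. Uqcr10 (-0.63) and Cox5a (-0.57) were not called (edgeR adjusted p = 0.0873 and 0.0521).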

How the results depend on the processing

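In KO, 9 to 18 members rose at 22 °C when a library was left out (median 0.26 to 0.32, 3 lower in each). Upper-quartile factors gave 9 (median 0.18), voom 32, the clock covariate 33 (median 0.54) and the fit without the muscle-bearing libraries 4. Over all genes, 1943 rose in KO with every library, 1341 to 1821 with a library left out and 1179 with upper-quartile factors. The number was 3079 with voom, 1276 with the clock covariate and 776 without the muscle-bearing libraries. In WT the rise of the members gave 39 to 41 calls when any library was left out, with a median of 0.59 to 0.81 and 1 to 2 lower. Over all genes, 2486 to 2993 rose in those fits. Upper-quartile factors, voom, the fit on only the groups compared and the clock covariate each called 2 members lower. Over all genes they called 3382, 2319, 2325 and 1988 lower. For KO against WT at 22 °C, 9 to 31 members were lower with a library left out (median -0.39 to -0.15, 1 higher in each). When only the compared groups were fitted or the muscle-bearing libraries were left out, 2 were lower. Under the clock covariate 0 were lower and 0 higher, with a median of 0.19. Over all genes, 1421 were lower in the main fit, 1084 to 1762 with a library left out and 441 with only the compared groups. The number was 705 without the muscle-bearing libraries and 82 under the clock covariate. Under that covariate the values at 22 °C changed sign for Uqcrq (0.18), Cox6b1 (0.0193), Sdhd (0.0509) and Uqcrc1 (0.0884), all called without it; 24 further values of named members over all comparisons, called in neither fit, also changed sign under it. At 30 °C, voom called 1 member higher, beside 23 of all genes. All left-out fits called 0 members, with medians of 0.09 to 0.15, and the median was 0.19 with the clock covariate. The 5 interaction calls sat just under the threshold: 0 to 17 with a library left out (median -0.49 to -0.25), 0 with upper-quartile factors, no filter, the replicate block, the muscle covariate, the clock covariate (median -0.0059) or the muscle-bearing libraries out, 15 with DESeq2 and 12 with voom. Over all genes, 337 interactions were called negative in the main fit. The number was 277 with upper-quartile factors, 192 with no filter, 145 with the replicate block and 266 with the muscle covariate. It was 20 with the clock covariate, 15 without the muscle-bearing libraries, 747 with DESeq2 and 678 with voom. The causes of these differences between fits were not tested, beyond fewer libraries where some were left out. Upper-quartile factors moved the median of all genes at 22 °C to -0.08 in KO, against 0.02 with TMM, and to -0.13 in WT, against -0.03, so that 1179 genes were higher and 2540 lower in KO, against 1943 and 1829, and 2196 higher and 3382 lower in WT, against 2897 and 2509. Over all alternatives, the single comparisons of those of the 29 named members that were tested were unchanged in direction and call in 2322 cases. They lost the call in 196, gained it in 52, changed sign with no call in either fit in 78 and changed sign with a call in 4. The 2322 unchanged cases include values called in neither fit, such as those at 30 °C. They are therefore not a measure of how many calls were kept. The replicate numbers were not taken as pairs: libraries numbered 3 deviated together (correlations of 0.185 to 0.519), but those numbered 1, 2 and 4 ran from -0.503 to 0.392, and 6 of 16 libraries were closest to their own number. Under the replicate block the 5 interaction calls had edgeR adjusted p from 0.0772 to 0.0966. The counts of Cox6a2, Atp5g1 and Atp5g2 were low, with as few as 0, 7 and 2 in a library, which limits their precision.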
